A study of Mus musculus with 9 samples.

Results

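Collagen chain genes encode the alpha chains that wind around each other in threes as a collagen triple helix. The members were all genes of the expression table whose symbol has the form Col, a number, the letter a and a number. Values of several RefSeq transcripts of 1 symbol were added. This gave 35 collagen genes among 14771 named genes, from 37 transcripts. The RefSeq annotation lists 44 such symbols, and the other 9 (Col4a1, Col5a3, Col6a5, Col13a1, Col17a1, Col18a1, Col24a1, Col25a1 and Col26a1) were not analysed here. By class the table held 9 of 11 fibrillar genes, 5 of 6 type IV genes, 5 of 6 type VI genes, 9 of 9 FACIT genes, 3 of 3 short-chain genes, 1 of 2 multiplexin genes, 1 of 4 transmembrane genes and 2 of 3 others (Col7a1 and Col28a1).

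Fibrillar collagens form the banded fibrils of connective tissue, type IV collagen forms the sheet of basement membranes, and type VI forms beaded filaments at the cell surface. FACIT collagens (fibril-associated collagens with interrupted triple helices) sit on the surface of fibrils or in basement membrane zones, and transmembrane collagens span the plasma membrane. Brain tissue is poor in fibrillar collagen, which is found there mainly in the meninges and around vessels, and type IV collagen is found mainly in vessel walls.

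The data are 9 mRNA sequencing libraries of mouse cells, 3 for each of 3 groups. Group AG is astroglia of strain C57BL/6 with the genotype p53 DN, Nf1 shRNA. Groups BS and OB are tumour cells of the brainstem and of the olfactory bulb, of the strain 129;C57BL/6 mix, with the genotype Foxr2 overexpression, p53 cko. Foxr2 is a forkhead transcription factor, and p53 and Nf1 are tumour suppressors. The sources used here do not give ages, the driver of the transgene or knockout, or whether the libraries within a group are from different animals or cultures. All 3 groups carry a change of p53, and the AG group differs from both tumour groups in strain, genotype and cell source at once, so these cannot be told apart. P-values measure the spread between these libraries, which may be technical. Values below are normalized reads (reads divided by 1 size factor per library), always in the order AG_1, AG_2 and AG_3, BS_287, BS_295 and BS_296, and OB_257, OB_287 and OB_295.

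Depth ran from 14987773 to 19868282 reads per library in AG, from 12680832 to 15282668 in BS and from 11300273 to 13927771 in OB. Foxr2 read 0 to 0.986 in AG and 4505 to 12567 in the tumour libraries. Nf1 read 1334 to 1588 in AG and 4184 to 8620 in the tumours, and no AG library without the shRNA was analysed here. Trp53, which has several transcripts, read 17.7 to 51.4 in all libraries. Against the AG label, the astrocyte markers Gfap (0.834 to 3.27), Aqp4 (1.09 to 1.97) and Aldh1l1 (5.003 to 5.91) were near 0 in AG, while Gja1 (4961 to 5396), Sox9 (2328 to 2947) and Slc1a3 (753 to 855) were well measured there. Of the other astrocyte markers S100b read 25.01 to 27.2 and Aldoc 0 to 1.09 in AG. Among the 5 astrocyte markers tested, S100b and Aldoc were called higher and Gja1 lower in OB. In BS Aldoc was called higher and 0 were called lower. Over all tested genes 16% were higher and 19% lower in OB, and 15.6% and 19.5% in BS. The 8 astrocyte markers in the table had sums of 8602 to 8693 in AG, against 17391 to 30952 for the BS libraries and 6749 to 34933 for the OB libraries. These sums rested on different genes. Gja1 and Sox9 made up most of the AG sums, and Slc1a3 most of those of the BS libraries, OB_287 and OB_295. In OB_257 nearly all of the sum was S100b. The 6 pericyte and smooth muscle markers in the table summed to 58713 to 62348 in AG, against 49.5 to 114 in the BS libraries and 118 to 172 in the OB libraries. Acta2 and Tagln made up most of that sum, with Rgs5 at 0 to 6.67 and Des at 0 in AG. The 7 perivascular fibroblast markers summed to 2290 to 2460 in AG. Most of this was Fn1 (1119 to 1247), Twist1 (707 to 742) and Cd248 (333 to 485), all called higher in AG than in either tumour group, with Dcn at 10.9 to 21.7, Lum at 0.834 to 2.96, Postn at 2.501 to 6.899 and Thy1 at 0. They summed to 587 to 4578 in BS, nearly all of it Thy1, and to 89.5 to 427 in OB. The 5 endothelial markers summed to 923 to 1035 in AG, nearly all of it Flt1, with Cdh5 and Cldn5 at 0, to 29.6 to 244 in BS and to 11.1 to 234 in OB. The 6 oligodendrocyte precursor markers had sums of 17.4 to 20.01 in AG, at least 33881 and at most 80009.7 in BS, and 40344 to 72013 for OB. Of these 5 were called higher in OB and 3 (Olig1, Olig2 and Cspg4) in BS, beside 16% and 15.6% of all tested genes. Sox10 and Gpr17 were not called in BS (adjusted p = 0.0899 and 0.0958 by limma) nor Pdgfra in either. All of the 6 but Cspg4 passed the filter given below only through the tumour libraries, as did Aldoc. Fn1 and Twist1 passed it only through AG, so the side of these markers follows in part from the filter. Only 3 of the 11 listed microglia markers were in the table, and they summed to at most 103 in any library. These marker levels differ between the groups together with the collagen genes, and their part in the collagen results was not tested. Within the tumours OB_257 stood apart, with Slc1a3 at 88.4 and Sox9 at 25.4 where the other tumour libraries read at least 11447 and 2836. BS_287 and OB_257 differed from their groups in several members below, so the counts were repeated without both.

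Promoters are shown first for members on both sides of the comparison: Col1a2, Col6a1 and Col8a1, all higher in astroglia, Col9a2, called higher in OB, and Col23a1, called higher in OB and BS. Both annotated starts of Col9a1 are added because the table measured a transcript from each. Each run is the 250 bases before the annotated start on the gene's strand, 5′ to 3′, from RefSeq on GRCm38.p6, which is a later build than the mm9 named for the table. Capitals mark matches to the motifs searched on both strands: the TATA box as TATAAA, the CCAAT box as those letters, the GC box as GGGCGG, the AP-1 site as TGANTCA, and a SOX-type site as ACAAAG. Positions count the base before the start as -1.
Col1a2, chr6:4505368-4505617, plus strand: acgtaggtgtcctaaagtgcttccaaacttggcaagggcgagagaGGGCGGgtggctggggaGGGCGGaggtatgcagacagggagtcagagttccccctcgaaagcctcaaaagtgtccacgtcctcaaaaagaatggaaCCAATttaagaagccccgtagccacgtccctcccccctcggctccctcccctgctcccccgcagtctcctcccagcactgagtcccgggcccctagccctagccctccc
Col6a1, chr10:76726045-76726294, minus strand: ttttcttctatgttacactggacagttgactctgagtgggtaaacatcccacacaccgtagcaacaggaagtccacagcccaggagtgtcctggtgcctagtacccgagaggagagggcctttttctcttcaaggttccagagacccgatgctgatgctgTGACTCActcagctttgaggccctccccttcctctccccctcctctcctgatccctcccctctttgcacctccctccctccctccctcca
Col8a1, chr16:57754738-57754987, minus strand: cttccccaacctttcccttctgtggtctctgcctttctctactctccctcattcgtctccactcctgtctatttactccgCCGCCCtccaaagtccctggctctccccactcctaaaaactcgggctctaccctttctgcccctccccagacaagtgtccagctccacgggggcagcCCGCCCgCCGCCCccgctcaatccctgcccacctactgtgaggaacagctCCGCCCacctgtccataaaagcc
Col9a2, chr4:121039316-121039565, plus strand: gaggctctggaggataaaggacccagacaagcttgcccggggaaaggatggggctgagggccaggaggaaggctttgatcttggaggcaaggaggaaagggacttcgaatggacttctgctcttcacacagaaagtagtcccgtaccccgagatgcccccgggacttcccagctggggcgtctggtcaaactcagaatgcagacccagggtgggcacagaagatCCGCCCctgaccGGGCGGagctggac
Col23a1, chr11:51289670-51289919, plus strand: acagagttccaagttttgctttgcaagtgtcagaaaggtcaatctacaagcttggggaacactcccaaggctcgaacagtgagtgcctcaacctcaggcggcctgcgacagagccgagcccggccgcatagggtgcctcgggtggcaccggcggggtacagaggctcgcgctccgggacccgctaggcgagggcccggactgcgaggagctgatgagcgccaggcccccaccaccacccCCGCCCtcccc
Col9a1 long transcript, chr1:24177360-24177609, plus strand: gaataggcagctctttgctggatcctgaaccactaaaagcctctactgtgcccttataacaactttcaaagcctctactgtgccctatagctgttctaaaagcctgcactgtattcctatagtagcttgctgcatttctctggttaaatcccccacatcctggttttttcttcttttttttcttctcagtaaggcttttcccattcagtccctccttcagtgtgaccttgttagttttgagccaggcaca
Col9a1 short transcript, chr1:24194953-24195202, plus strand: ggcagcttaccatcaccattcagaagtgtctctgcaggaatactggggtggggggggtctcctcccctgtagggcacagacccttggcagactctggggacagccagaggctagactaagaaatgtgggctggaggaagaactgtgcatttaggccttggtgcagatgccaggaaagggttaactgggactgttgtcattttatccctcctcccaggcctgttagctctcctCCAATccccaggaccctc

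RefSeq held 29 promoter windows for 27 of the members. A GC box matched in 18 of the 29 (62.1%), against 32.7% of all 32851 mouse promoter windows of this length. CCAAT matched in 8 (27.6% against 33.8%), TATAAA in 3 (10.3% against 12.4%), ACAAAG in 4 (13.8% against 16.5%) and TGANTCA in 1 (3.45% against 6.75%). Matches of different motifs did not overlap each other. Col8a1 carried GC boxes at -170, -73, -66 and -23, and Col1a2 carried GC boxes at -205 and -188 and a CCAAT box at -109. In Col6a1 the AP-1 match lay at -90. Col9a2 carried GC boxes at -26 and -14 and Col23a1 carried one at -11, so they stood on both sides of the comparison. GC content was not matched in these shares.

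Collagen genes were expressed mainly in the astroglia and at far lower levels in tumour cells of either site. They took 0.855% ± 0.0332 of all reads in AG (SD, n = 3), 0.0448% ± 0.0103 in BS and 0.104% ± 0.0528 in OB. The OB libraries stood at 0.132%, 0.043% and 0.137%. In bulk RNA, fewer cells of a collagen-making type and less collagen RNA per cell cannot be told apart. The AG share rested on a few genes: Col1a1, Col12a1 and Col5a2 together held 0.606% ± 0.0219 of AG reads. Without the interstitial fibril genes Col1a1, Col1a2 and Col3a1 the AG share was 0.602% ± 0.0155.

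**Figure D1:**
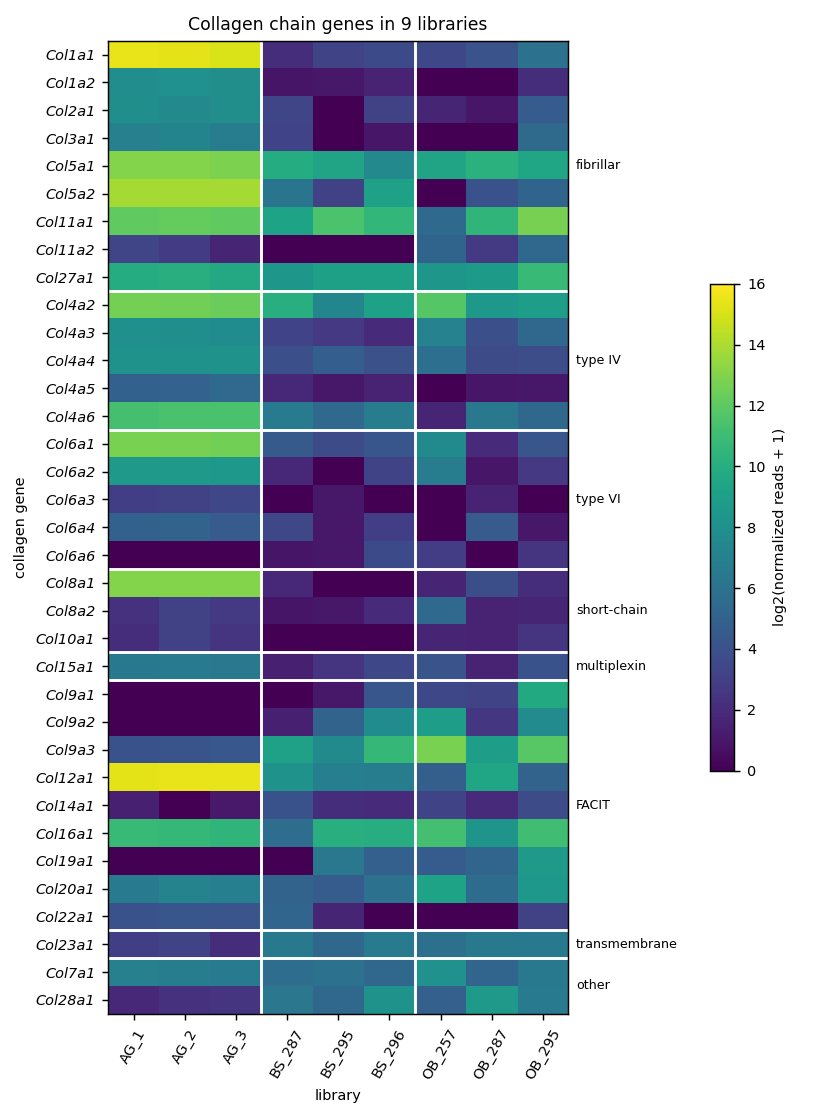
Heat map of log2(normalized reads + 1) for the 35 collagen genes (vertical axis, by class) in 9 libraries (horizontal axis, by group), with lighter colours for higher values. The 16 genes called lower in the tumours are lightest in the 3 AG columns, Col9a3, Col23a1 and Col28a1 are lighter in all 6 tumour columns, and Col11a1, Col11a2 and Col27a1 are lightest in OB_295.

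Tests used limma on log2(normalized reads + 1) over the 10576 genes with 10 or more normalized reads in 3 or more libraries, with a call at a Benjamini-Hochberg adjusted p under 0.05. Of the 35 members 28 passed this filter. Among them 9 (Col1a2, Col2a1, Col3a1, Col4a5, Col6a2, Col6a4, Col8a1, Col15a1 and Col22a1) passed only through the AG libraries, so their place on the lower side follows in part from the filter. Another 4 (Col9a2, Col19a1, Col23a1 and Col28a1) had 0 AG libraries at 10 and passed only through the tumour libraries, so their place on the higher side does too. In OB against AG 5 members were higher and 16 lower, beside 16% of all tested genes higher and 19% lower (34.9% called in all). In BS against AG, 3 members were higher and 16 lower, beside 15.6% higher and 19.5% lower (35.1% called in all). The 16 lower genes were the same in both comparisons, as were 3 of the higher ones (Col9a3, Col23a1 and Col28a1), and Col9a2 and Col19a1 were called higher in OB alone. Both comparisons share the AG libraries. The median log2 difference of the tested members was -3.21 in OB and -3.83 in BS, beside -0.01 and -0.03 over all tested genes.

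With both BS_287 and OB_257 left out, the 21 and 19 calls held and 3 members were added in BS (Col9a2, Col19a1 and Col22a1), beside 45.4% of all tested genes called in OB and 45.6% in BS. Leaving out any 1 of the AG libraries lowered the OB calls to 13, beside 20.5% to 20.6% of all tested genes in place of 34.9%, losing Col3a1, Col4a2, Col4a3, Col6a2, Col9a2 and Col19a1 each time, while 2 other called members were no longer tested. Of the 21 calls in OB 15 held under each of the 21 alternatives that tested them, and of the 19 in BS 17 did. A fit of AG and BS alone added Col6a4, Col7a1, Col11a1, Col20a1 and Col27a1 as lower in BS, beside 43.2% of all tested genes called.

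**Figure D2:**
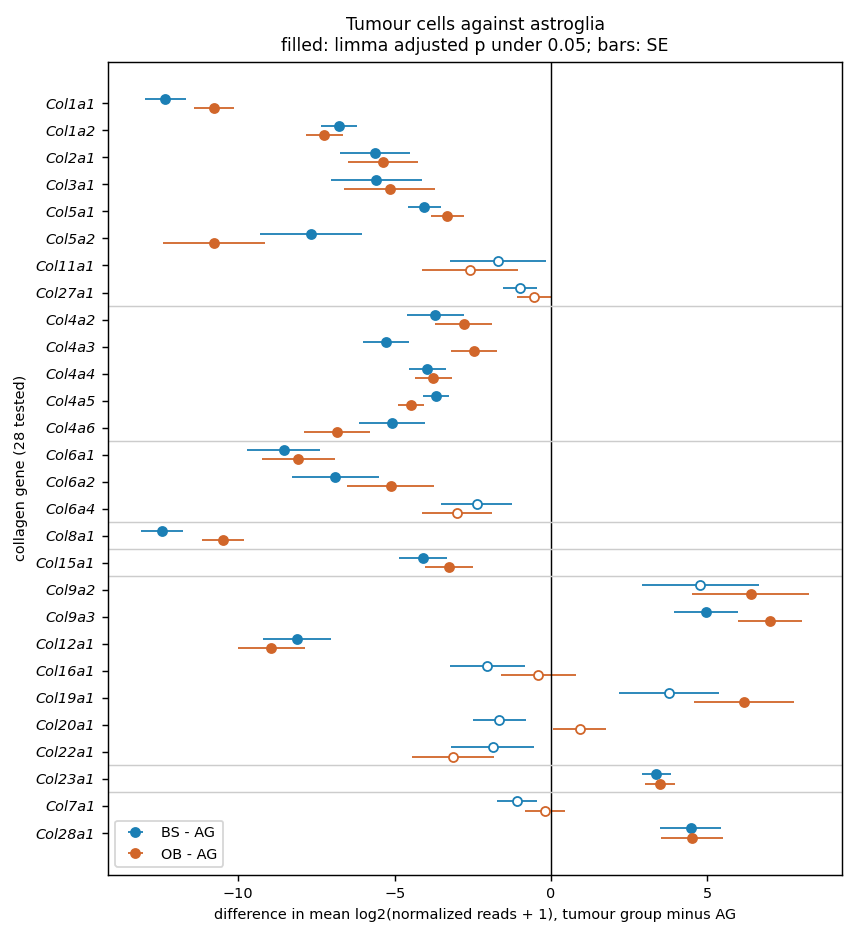
Difference in mean log2(normalized reads + 1), tumour group minus AG (horizontal axis), for the 28 tested collagen genes (vertical axis, by class), with bars for the standard error. Filled points passed the limma test, and the 16 genes filled to the left of 0 are so in both groups.

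Of the fibrillar genes 8 were tested and 6 were lower in both tumour groups, beside 19% of all tested genes in OB and 19.5% in BS. The median log2 difference of the 8 was -5.26 in OB and -5.61 in BS. Col1a1, the alpha-1 chain of type I collagen, stood at 46039.5, 41542 and 35279.8 in AG, at 3.35, 8.53 and 10.8 in BS and at 9.95, 16.2 and 64.1 in OB. Every tumour library lay under the lowest AG library. The ratio of means was 1361-fold over OB and 5406-fold over BS, with log2 differences of -10.79 (SE 0.64, adjusted p = 9.96e-06) and -12.33 (SE 0.64, adjusted p = 5.12e-06). Without OB_295 the ratio over OB was 3135. Its partner chain Col1a2 stood at 227, 273 and 239.6 in AG, at 0.839, 1.07 and 1.97 in BS and at 0, 0 and 3.26 in OB. The OB group held 3 reads of Col1a2 in all, which puts AG 235-fold higher with a 95% counting interval of 80.2 to 1144. Its log2 differences were -7.25 (SE 0.59, adjusted p = 4.72e-05) in OB and -6.78 (SE 0.59, adjusted p = 6.53e-05) in BS. Col3a1, the chain of type III collagen that is laid down with type I, stood at 123, 149.8 and 109.98 in AG, at 8.39, 0 and 0.985 in BS and at 0, 0 and 44.6 in OB. All of the OB signal came from OB_295. The log2 differences were -5.16 (SE 1.46, adjusted p = 0.0249) and -5.59 (SE 1.46, adjusted p = 0.0181), and the OB call was lost without OB_257 or OB_287, without any 1 AG library, and by edgeR and DESeq2, while the BS call was lost without BS_295, BS_296 or any 1 AG library.

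Type V collagen starts and limits the width of type I fibrils, and its chains were among the most read collagen genes of the astroglia. Col5a2 stood at 14661, 14841 and 14439.5 in AG, at 74.6, 7.47 and 576 in BS and at 0, 15.2 and 34.8 in OB. AG was 879-fold over OB and 66.7-fold over BS by the ratio of means, with log2 differences of -10.78 (SE 1.63, adjusted p = 0.00129) and -7.67 (SE 1.63, adjusted p = 0.00728). The BS libraries spread widely, with BS_296 far above BS_295. Without BS_296 the ratio over BS was 357, and without OB_295 that over OB was 1924. Col5a1 kept more of its level, at 8531, 8376 and 7263 in AG, 945, 637 and 187 in BS and 659, 1187 and 675 in OB. Its ratio of means was 9.59 over OB and 13.7 over BS, with log2 differences of -3.31 (SE 0.53, adjusted p = 0.00181) and -4.05 (SE 0.53, adjusted p = 0.00065). Neither gene's tumour libraries overlapped AG.

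Fibrillar chains known from cartilage differed in their calls. Col2a1, the chain of type II collagen, stood at 248, 187 and 234 in AG, at 9.23, 0 and 7.88 in BS and at 2.21, 0.952 and 23.9 in OB. It was lower in both tumour groups, with log2 differences of -5.37 (SE 1.12, adjusted p = 0.00651) and -5.63 (SE 1.12, adjusted p = 0.00529). Col11a1, a type XI chain that is also made outside cartilage, stood at 4413, 4678 and 4431 in AG, at 629, 2775 and 1525 in BS and at 43.1, 1388 and 6754 in OB. By group mean per kilobase it was the highest fibrillar gene in both tumour groups, and OB_295 was above every AG library while OB_257 was the lowest of all 9. It was not called, at -2.596 (SE 1.54, adjusted p = 0.222) with a 95% interval of -6.11 to 0.92 in OB and at -1.7001 (SE 1.54, adjusted p = 0.425) with an interval of -5.21 to 1.81 in BS. Without OB_295 it was called lower in OB. Col27a1, a fibrillar chain of cartilage, stood at 949.7, 1074 and 819 in AG, at 352, 542 and 543 in BS and at 358, 427 and 1778 in OB. It was not called, at -0.54 (SE 0.55, adjusted p = 0.478) and -1.002 (SE 0.55, adjusted p = 0.19), with 95% intervals of -1.79 to 0.71 and -2.25 to 0.25. Without OB_295 it was called lower in both. Col11a2 did not pass the filter and reached at most 40.2 in any library.

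All 5 type IV genes in the table were lower in both tumour groups, beside 19% of all tested genes in OB and 19.5% in BS. Their median log2 difference was -3.76 in OB and -3.97 in BS. Col4a2, whose chain joins that of Col4a1 in every basement membrane, stood at 6499, 6212 and 5274 in AG, at 1052, 164 and 561 in BS and at 3561, 368 and 478 in OB. OB_257 was the highest tumour library by far, and no tumour library reached the AG range. The log2 differences were -2.8002 (SE 0.902, adjusted p = 0.0416) and -3.697 (SE 0.902, adjusted p = 0.0137). The OB call was lost by edgeR, by upper-quartile rescaling, without OB_287, OB_295 or BS_296, and without any 1 AG library, and the BS call without AG_1. Col4a1 and Col4a2 overlap in the annotation, so reads of the overlap may be shared.

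Col4a3 and Col4a4 are neighbours that start from opposite strands of a shared region, and their chains join with that of Col4a5 in the kidney and the inner ear. Col4a3 stood at 263, 245 and 216 in AG, at 8.39, 5.33 and 2.96 in BS and at 138, 14.3 and 39.1 in OB. Its 3 OB libraries all lay above its 3 BS libraries and under AG, with log2 differences to AG of -2.46 (SE 0.74, adjusted p = 0.0314) and -5.29 (SE 0.74, adjusted p = 0.000847). The OB call was lost by edgeR, without OB_287 or OB_295, and without any 1 AG library. Col4a4 stood at 288, 297 and 295.1 in AG, at 14.3, 26.7 and 14.8 in BS and at 57.5, 11.4 and 13.04 in OB. Its OB and BS libraries overlapped, and its log2 differences to AG were -3.76 (SE 0.59, adjusted p = 0.00158) and -3.97 (SE 0.59, adjusted p = 0.00124). Per kilobase of transcript, Col4a3 was 0.973 ± 0.108 times Col4a4 in AG (SD, n = 3), with 0.695 and 0.236 in BS_287 and BS_295 and 2.84, 1.48 and 3.55 in OB. Col4a3 and Col4a4 overlap in the annotation, so reads of the overlap may be shared.

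Col4a6, an X-linked chain of smooth muscle and epithelial basement membranes, stood at 2438, 2704 and 2671 in AG, at 89.7, 43.7 and 110.3 in BS and at 2.21, 85.6 and 41.3 in OB. It was lower by 60.5-fold in OB and 32.05-fold in BS by the ratio of means, with log2 differences of -6.84 (SE 1.05, adjusted p = 0.0014) and -5.08 (SE 1.05, adjusted p = 0.00641). Without OB_287 the ratio over OB was 119.7. Its neighbour Col4a5 read 30.02 to 43.6 in AG and at most 2.52 in any tumour library, and was lower in both tests. With 2 OB reads, the ratio for Col4a5 in AG over OB was 49.6 with a counting interval of 13.4 to 415.

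The main type VI chains and Col8a1 were far higher in astroglia. Col6a1 stood at 6953, 6887 and 6257 in AG, at 21.8, 11.7 and 18.7 in BS and at 200.05, 2.85 and 18.5 in OB. AG was 90.8-fold over OB and 385-fold over BS by the ratio of means, with log2 differences of -8.08 (SE 1.17, adjusted p = 0.00104) and -8.55 (SE 1.17, adjusted p = 0.000782). Col6a2, its partner chain, stood at 401, 395 and 370.2 in AG, at 2.52, 0 and 8.87 in BS and at 111, 0.952 and 5.43 in OB. For both chains OB_257 was the highest tumour library, and without it the ratio of Col6a1 over OB was 628. The log2 differences of Col6a2 were -5.12 (SE 1.39, adjusted p = 0.0211) and -6.9003 (SE 1.39, adjusted p = 0.00567), and the OB call was lost by edgeR, without OB_287 or OB_295, and without any 1 AG library. Col6a4 was tested and not called (adjusted p = 0.0684 in OB and 0.134 in BS), at 22.9 to 33.5 in AG and 0 to 22.8 in the tumours, and was called lower in both without OB_287. Col6a3, the third chain of the common type VI trimer, has several annotated transcripts and read at most 9.801. Col6a6 read 0 in AG and at most 10.8 elsewhere.

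Col8a1, the alpha-1 chain of the network that type VIII collagen forms under endothelium and in vessel walls, stood at 8303, 8394 and 8428 in AG, at 2.52, 0 and 0 in BS and at 2.21, 13.3 and 3.26 in OB. The BS group held 3 reads of it in all, so that AG was 8773-fold higher with a counting interval of 3002 to 42544, and AG was 1337-fold over OB by the ratio of means (3062 without OB_287). The log2 differences were -10.49 (SE 0.67, adjusted p = 1.48e-05) and -12.43 (SE 0.67, adjusted p = 5.89e-06). Its promoter is the one with 4 GC boxes above. Its partner Col8a2 did not pass the filter, at 4.17 to 7.88 in AG and 0.839 to 43.1 in the tumours. Col10a1, of growth plate cartilage, read 3.34 to 7.88 in AG, at most 4.35 in OB, and 0 in BS. Col15a1, a multiplexin of basement membrane zones, stood at 87.5, 101 and 82.8 in AG, at 1.68, 4.27 and 9.85 in BS and at 16.6, 1.903 and 15.2 in OB. Its log2 differences were -3.28 (SE 0.77, adjusted p = 0.0113) and -4.09 (SE 0.77, adjusted p = 0.00405), with no tumour library above 16.6.

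Single FACIT genes went in both directions. Of the 9 members of this class 7 were tested: 3 were higher and 1 lower in OB, and 1 was higher and 1 lower in BS. Over all tested genes 16% were higher and 19% lower in OB, and 15.6% and 19.5% in BS, so the BS counts are close to those shares. Of the higher calls in OB, Col9a2 and Col19a1 passed the filter only through tumour libraries. The median log2 difference of the 7 tested genes was 0.91 in OB and -1.66 in BS. Col12a1, a FACIT of dense connective tissue that binds type I fibrils, was the one lower call. It stood at 41183, 44511 and 44805 in AG, at 297, 118 and 104 in BS and at 27.6, 695 and 33.7 in OB. AG was 173-fold over OB and 251-fold over BS by the ratio of means, with log2 differences of -8.94 (SE 1.08, adjusted p = 0.000406) and -8.13 (SE 1.08, adjusted p = 0.00068). OB_287 was the highest tumour library and OB_257 the lowest. Without OB_287 the ratio over OB was 1419, above that over BS, and without BS_287 the ratio over BS was 390.4.

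Type IX collagen decorates type II fibrils in cartilage, and of its 3 genes Col9a3 was called higher in both tumour groups and Col9a2 in OB. Col9a3 stood at 15.01, 16.8 and 19.6 in AG, at 568, 193 and 1578 in BS and at 7162, 470.1 and 3632 in OB. All 6 tumour libraries lay above all AG libraries, by 219-fold in OB and 45.5-fold in BS for the ratio of means. The log2 differences were 6.999 (SE 1.03, adjusted p = 0.00111) and 4.95 (SE 1.03, adjusted p = 0.00652). Without OB_257 the ratio in OB was 119.8, and without BS_296 that in BS was 22.2. Col9a2 stood at 0, 0 and 0 in AG, at 1.68, 33.1 and 219.7 in BS and at 473, 4.76 and 209 in OB. Against the floor of 3 reads per AG library it was at least 78.7-fold higher in OB and at least 29.2-fold higher in BS. Without OB_257 the OB bound was 36.7, and without BS_296 the BS bound was 5.97. The test gave 6.38 (SE 1.87, adjusted p = 0.029) in OB and 4.77 (SE 1.87, adjusted p = 0.0798) in BS. OB_287 and BS_287 held only 4.76 and 1.68 normalized reads, close to the floor of 3 reads. The OB call was lost without OB_257, without OB_295, without any 1 AG library and with a pseudocount of 5, and a BS call appeared without BS_287, without OB_287 and by DESeq2.

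Col9a1 stood at 0, 0 and 0 in AG, at 0, 1.07 and 18.7 in BS and at 9.95, 8.56 and 841 in OB, and it did not pass the filter. A single library, OB_295, carried nearly all of its reads. In that library the row of the long transcript (3834 bases) read 825 and that of the short transcript (3059 bases) read 16.3, and the short row was at 0 in the other 8 libraries. The long transcript starts at position 24177610 of chromosome 1, next to the first Col9a1 window shown above, which held no match to any motif searched. The short one starts near the second window, which held a CCAAT box at -18. Reads shared by both transcripts may be missing from both rows, so the ratio of the rows is not a ratio of transcripts.

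Sox10, a transcription factor of oligodendrocyte precursors and of the neural crest, also varied widely between tumour libraries and is given beside type IX collagen, a choice made after its values were seen. It stood at 0.834, 0.986 and 2.18 in AG, at 3.35, 29.9 and 1511 in BS and at 30528, 1808 and 13223 in OB. Within each tumour group the library with the highest Sox10 (BS_296 and OB_257) was also the highest for Col9a2 and Col9a3. Col9a1 was highest in OB_295 instead, Col9a3 was higher in BS_287 than in BS_295 although Sox10 was lower there, and OB_287 had more Sox10 than BS_296 but less Col9a3. The part of Sox10 in the collagen values was not tested.

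Col19a1, a FACIT of basement membrane zones that is also made by neurons, stood at 0, 0 and 0 in AG, at 0, 82.1 and 29.6 in BS and at 24.3, 36.2 and 383 in OB. Against the floor it was at least 50.8-fold higher in OB and at least 12.8-fold higher in BS. Without OB_295 the OB bound was 10.4, and without BS_295 the BS bound was 5.08. It was called in OB, at 6.15 (SE 1.599, adjusted p = 0.0176), and not in BS, at 3.77 (SE 1.599, adjusted p = 0.101), where BS_287 read 0. The OB call was lost without OB_295 and without any 1 AG library, and a BS call appeared without BS_287 and by DESeq2. Col16a1, a FACIT of many tissues, stood at 1759, 1618 and 1395 in AG, at 51.2, 1099 and 990.2 in BS and at 2409, 313 and 2230.1 in OB. It was not called, at -0.41 (SE 1.20, adjusted p = 0.819) with a 95% interval of -3.15 to 2.33 in OB and -2.04 (SE 1.20, adjusted p = 0.221) with an interval of -4.78 to 0.697 in BS. BS_287 was far under the other libraries. The OB value changed sign by edgeR, by DESeq2 and without OB_287.

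Col20a1, a FACIT-like chain, stood at 97.6, 139.9 and 121 in AG, at 32.7, 24.5 and 61.1 in BS and at 623, 48.5 and 365 in OB. Its BS libraries all lay under AG, while in OB a pair of libraries lay above AG and OB_287 under it. Neither difference was called, at 0.91 (SE 0.85, adjusted p = 0.435) and -1.66 (SE 0.85, adjusted p = 0.162). Without OB_287 it was called higher in OB and lower in BS. Col22a1 was tested and not called, at 15.01 to 18.7 in AG, at most 36.9 in BS and at most 7.61 in OB, and was called lower in both without BS_287 and in OB without OB_295. Col14a1 did not pass the filter and read at most 15.1.

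**Figure D3:**
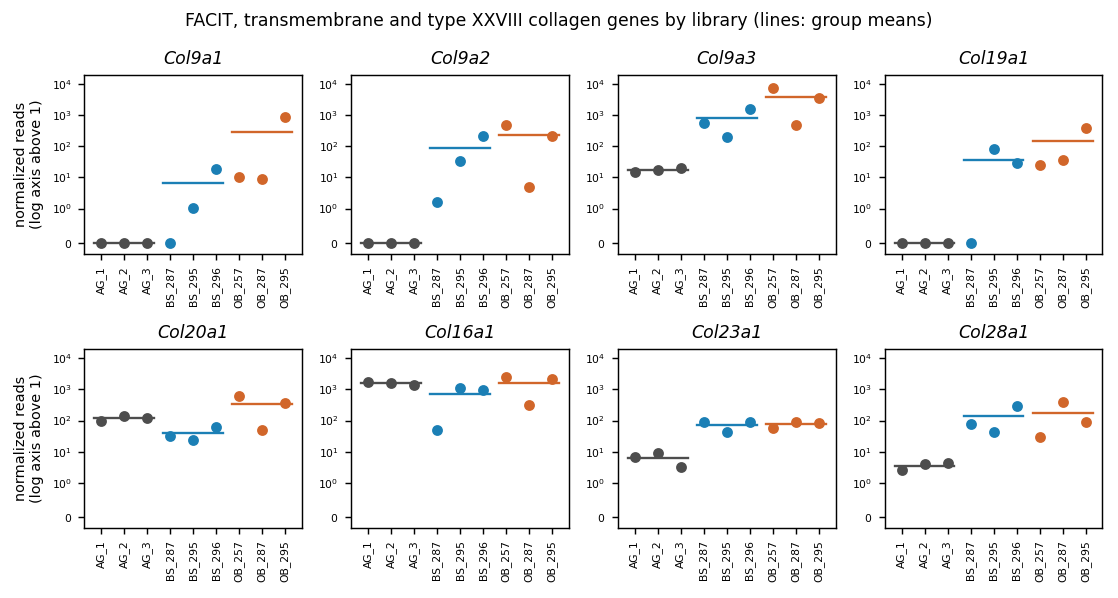
Normalized reads (vertical axis, log scale above 1) of 8 collagen genes in each library (horizontal axis), with points coloured by group and lines at the group means. Col9a1, Col9a2 and Col19a1 are at 0 in the 3 AG libraries, and the tumour points of Col9a2 span from 1.68 to 473.

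Col23a1, the transmembrane collagen in the table, stood at 6.67, 8.87 and 3.27 in AG, at 87.2, 41.6 and 92.6 in BS and at 58.6, 86.6 and 85.9 in OB. It was higher in both tumour groups, 12.3-fold in OB and 11.8-fold in BS by the ratio of means, with log2 differences of 3.48 (SE 0.47, adjusted p = 0.000707) and 3.36 (SE 0.47, adjusted p = 0.00084). Its tumour libraries varied least of the members above 0 in all 6, with the highest 2.23 times the lowest. Col28a1, a collagen known from peripheral nerve, stood at 2.501, 3.94 and 4.36 in AG, at 79.7, 41.6 and 289 in BS and at 28.7, 398 and 91.3 in OB. It was 47.9-fold higher in OB and 37.96-fold in BS, with log2 differences of 4.51 (SE 0.98, adjusted p = 0.00798) and 4.46 (SE 0.98, adjusted p = 0.00849). Without OB_287 the ratio in OB was 16.7, and without BS_296 that in BS was 16.8. The calls of Col23a1 and Col28a1 held under each alternative in both comparisons. Col7a1, the anchoring fibril chain of skin, stood at 122, 110.4 and 99.1 in AG, at 51.2, 61.9 and 41.4 in BS and at 277, 36.2 and 85.9 in OB. It was not called, at -0.202 (SE 0.64, adjusted p = 0.835) with a 95% interval of -1.66 to 1.26 and -1.0998 (SE 0.64, adjusted p = 0.216) with an interval of -2.56 to 0.36, and the sign in OB changed by upper-quartile rescaling, edgeR, DESeq2 and without OB_287. Without OB_257 it was called lower in BS.

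Counted by library ranges instead of the test, 5 tested members in OB lay wholly above AG and 18 wholly under it, beside 27.5% and 30.8% of all tested genes. In BS 4 lay wholly above and 22 wholly under, beside 26.7% and 31.8%. In OB the 18 include all 9 members that passed the filter only through AG. The 5 include all 4 that passed only through the tumour libraries. In BS the same holds except for Col22a1 and Col19a1, so these counts follow in part from the filter.

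Between the tumour sites 0 of the 28 tested collagen genes differed, beside 0 of 10576 genes (0%). At an unadjusted p under 0.05 limma gave 4 members (Col1a1, Col4a3, Col8a1 and Col20a1, all higher in OB), beside 9.64% of all tested genes. edgeR called 0 members and DESeq2 called 2, Col4a3 and Col20a1, beside 2.2% of all tested genes. The largest of the 4 was Col4a3, at 2.83 (SE 0.74, adjusted p = 0.285) for OB minus BS with a 95% interval of 1.15 to 4.51, and DESeq2 gave 3.51 (adjusted p = 0.00223). It was the only tested member whose OB and BS libraries did not overlap, beside 5.36% of all tested genes wholly higher and 4.63% wholly lower. Col20a1 was at 2.58 (SE 0.85, adjusted p = 0.409), and DESeq2 gave 3.13 (adjusted p = 0.00474). A limma fit of OB and BS alone gave an adjusted p of 0.957 for both Col4a3 and Col20a1. The intervals of this paragraph rest instead on a spread shared with the AG libraries. For the median gene, AG libraries varied less than tumour libraries, so these intervals may be too narrow for comparing the tumour sites. Without OB_287 limma called Col20a1, at 3.67 (adjusted p = 0.0341), beside 0.643% of all tested genes. The interval of Col23a1 was narrow, at -0.94 to 1.19. That of Col9a3 ran -0.298 to 4.39 and that of Col5a2 -6.82 to 0.61, so for both a several-fold difference between sites lay within the interval.

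To compare genes with each other, reads were divided by transcript length for the 26 members with 1 annotated transcript, since genes with several read low in this table. In AG the order was Col1a1 (6906 normalized reads per kilobase), Col12a1 (3779), Col5a2 (2211), Col8a1 (1640), Col6a1 (1634), Col5a1 (958), Col4a2 (929) and Col11a1 (588). Col8a1 and Col6a1 overlapped between libraries, as did Col5a1 and Col4a2. Col1a2 (46.1) and Col3a1 (22.9) stood far down the list. In BS the order began with Col11a1 (214), Col16a1 (137) and Col4a2 (91.8), and in OB with Col11a1 (356), Col16a1 (317) and Col4a2 (228), with overlapping libraries in both groups.

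**Figure D4:**
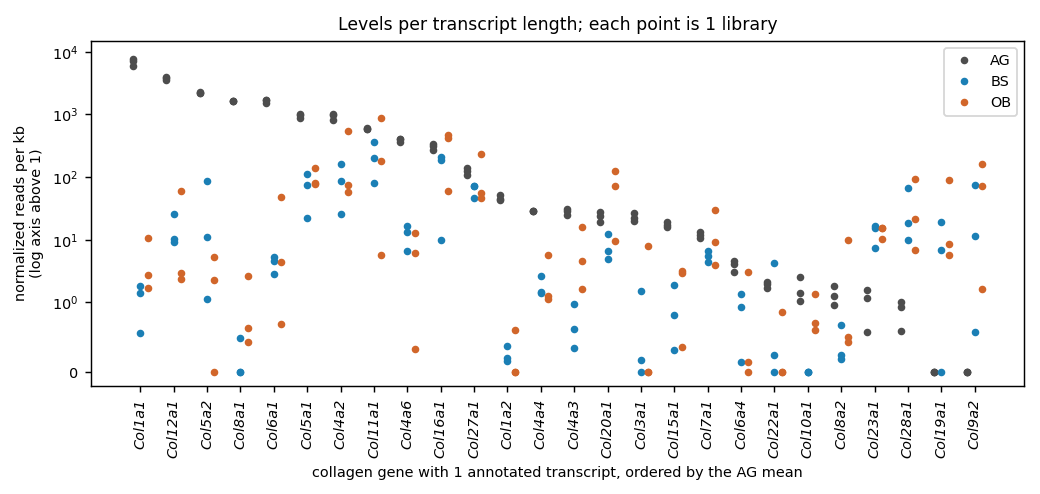
Normalized reads per kilobase of transcript (vertical axis, log scale above 1) for the 26 collagen genes with 1 annotated transcript (horizontal axis, ordered by the AG mean), with 1 point per library coloured by group. AG points fall from Col1a1 at 6906 to Col9a2 and Col19a1 at 0, and the tumour points do not follow that order.

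Some chains that assemble together were not measured at equal levels, while Col4a3 and Col4a4 were close in AG (0.973 ± 0.108, given above). Per kilobase Col1a1 was 151 ± 27.8 times Col1a2 in AG (SD, n = 3), at 183, 137 and 133 in the 3 libraries. Col1a1 was 305 ± 46.2 times Col3a1, which is not its partner chain but that of type III collagen, laid down with type I. Col5a1 was 0.433 ± 0.0327 times Col5a2 in AG, and 9.98, 67.2 and 0.256 times in BS and 61.4 and 15.3 times in OB_287 and OB_295, while OB_257 had no Col5a2 read. So Col5a2 led in AG and in BS_296 and Col5a1 led in the other tumour libraries. Whether reads of Col1a2 were lost in counting was not tested.

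Genes that modify, cut, bind or sense collagen were read from 4 lists, whose counts stand beside 16% of all tested genes higher and 19% lower in OB and 15.6% and 19.5% in BS. Of 16 tested genes for hydroxylation, folding and secretion, 1 was higher and 7 lower in OB, and 1 was higher and 8 lower in BS, with a median log2 difference of -1.01 and -1.04. P4ha3, a prolyl 4-hydroxylase subunit that stabilises the helix, stood at 2936, 2939 and 2781 in AG, at 5.87, 11.7 and 10.8 in BS and at 13.3, 61.9 and 215 in OB, with log2 differences of -5.64 (SE 0.83, adjusted p = 0.00115) and -8.16 (SE 0.83, adjusted p = 0.000162). P3h4, a non-enzymatic member of the prolyl 3-hydroxylase family, was also lower, at -2.63 (SE 0.47, adjusted p = 0.0032) and -2.29 (SE 0.47, adjusted p = 0.00642). Crtap, of the prolyl 3-hydroxylase complex, was lower in OB at -1.504 (SE 0.19, adjusted p = 0.00052) and in BS at -1.15 (SE 0.19, adjusted p = 0.00212). P3h2 was lower in BS at -1.75 (SE 0.396, adjusted p = 0.00973) and not called in OB, at -0.64 (SE 0.396, adjusted p = 0.238). P4ha1 passed narrowly in OB, at -1.34 (SE 0.397, adjusted p = 0.0299), and was not called in BS, at -1.08 (SE 0.397, adjusted p = 0.0657). Plod2, a lysyl hydroxylase, passed narrowly in BS, at -1.72 (SE 0.55, adjusted p = 0.0399), and was not called in OB, at -1.42 (SE 0.55, adjusted p = 0.0761). The OB call of P4ha1 and the BS call of Plod2 were lost without any 1 AG library and by upper-quartile rescaling, P4ha1 also without OB_295, and Plod2 also by edgeR and without BS_295 or BS_296. Colgalt2, a collagen galactosyltransferase, was the one higher gene. It stood at 10.01, 14.8 and 26.1 in AG, at 77.996, 958 and 1353 in BS and at 464, 758 and 778 in OB, with log2 differences of 5.28 (SE 0.96, adjusted p = 0.00337) and 4.803 (SE 0.96, adjusted p = 0.00551).

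Of 6 tested genes for procollagen cleavage 3 were lower in each tumour group and 0 higher (Pcolce, Pcolce2 and Adamts2, the last passing the filter only through AG). Pcolce, which enhances the removal of the C-propeptide, stood at 9664, 9166 and 8108 in AG, at 51.998, 97.1 and 151 in BS and at 481, 39.02 and 52.2 in OB, with log2 differences of -6.47 (SE 0.85, adjusted p = 0.000646) and -6.599 (SE 0.85, adjusted p = 0.000573). Pcolce2, a related enhancer, was lower at -2.12 (SE 0.22, adjusted p = 0.00018) and -2.21 (SE 0.22, adjusted p = 0.000144). The proteinase they assist, Bmp1, had 169 to 254 normalized reads in AG, 313 to 381 in BS, and in OB 203 to 329.

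Of 7 tested collagen receptors 2 were higher and 3 lower in OB, and 1 was higher and 3 lower in BS. Itga11, an integrin subunit for fibrillar collagen, passed the filter only through AG. It stood at 496, 516 and 453 in AG, at 4.19, 2.13 and 6.897 in BS and at 9.95, 1.903 and 7.61 in OB, with log2 differences of -6.23 (SE 0.56, adjusted p = 8.67e-05) and -6.598 (SE 0.56, adjusted p = 6.17e-05). Itgb1, the common beta subunit, was lower at -1.61 (SE 0.15, adjusted p = 0.00011) and -1.802 (SE 0.15, adjusted p = 6.05e-05), and Itga10 at -1.35 (SE 0.34, adjusted p = 0.0162) and -1.63 (SE 0.34, adjusted p = 0.00722). Ddr2, a receptor tyrosine kinase for fibrillar collagen, was higher instead. It stood at 977, 1088 and 1075 in AG, at 3117, 7585 and 2735 in BS and at 18229, 2885 and 4039 in OB, all 6 tumour libraries above AG, with log2 differences of 2.51 (SE 0.66, adjusted p = 0.018) and 1.94 (SE 0.66, adjusted p = 0.049). The BS call of Ddr2 was lost without any 1 AG or BS library or OB_295 and under several other settings (among them TMM rescaling), and the OB call without any 1 AG library. Itga2, another integrin subunit, was higher in OB at 2.87 (SE 0.73, adjusted p = 0.0164), lost without AG_1 or AG_2, and not called in BS, at 1.18 (SE 0.73, adjusted p = 0.246). Without 1 AG library 6 receptors were tested in OB and 0 or 1 was higher and 1 lower, beside 20.5% to 20.6% of all tested genes called. The OB calls of Itgb1 and Itga10 therefore did not both hold there.

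Of 5 tested collagen-binding proteoglycans 4 were lower in each tumour group: Bgn, Dcn and Ogn in both, Prelp in OB and Fmod in BS. Of the 5, Dcn, Fmod and Ogn passed the filter only through the AG libraries, where they were highest, so their place on the lower side follows in part from the filter. Bgn stood at 2100.3, 2121 and 2153 in AG, at 26.8, 0 and 41.4 in BS and at 2.21, 1.903 and 42.4 in OB, with log2 differences of -8.17 (SE 1.49, adjusted p = 0.0034) and -7.65 (SE 1.49, adjusted p = 0.00481). Ogn was lower at -4.62 (SE 0.699, adjusted p = 0.00131) and -5.196 (SE 0.699, adjusted p = 0.000716). Prelp was lower in OB, at -3.65 (SE 1.14, adjusted p = 0.0368), and stood at 3453, 3389 and 3075 in AG, at 2888, 59.7 and 308 in BS, where BS_287 was near AG, and at 176, 301 and 342 in OB. The Prelp call was lost without any 1 AG or OB library or BS_296. With 1 AG library left out, 2 of these genes were tested and 1 was lower in OB.

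**Figure D5:**
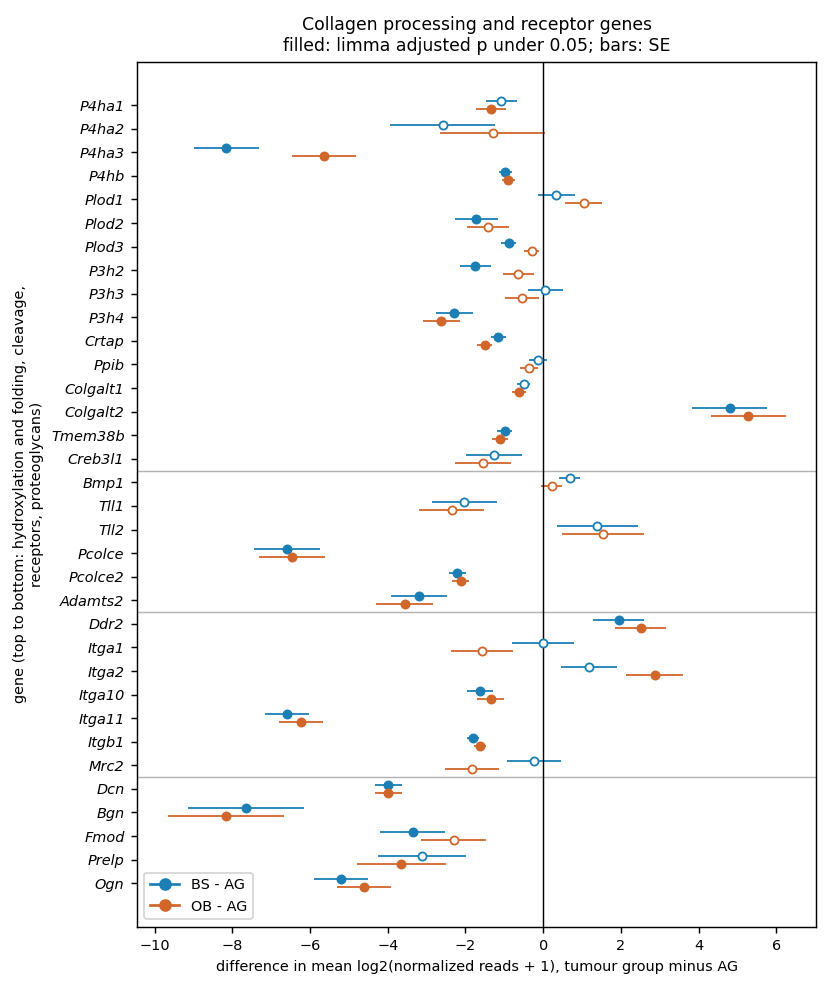
Difference in mean log2(normalized reads + 1), tumour group minus AG (horizontal axis), for the tested genes of the 4 collagen lists (vertical axis), with bars for the standard error and filled points for limma calls. P4ha3, Pcolce, Itga11 and Bgn lie farthest left and Colgalt2 farthest right.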

How the data were processed

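RNA was taken from cells with Sepazol, and a stranded TruSeq kit was used for the libraries, per the labels' protocols. The build mm9 and the tools DESeq2 1.20.0, featureCounts (Subread 1.6.2), HISAT2 2.1.0 and bcl2fastq 1.8.4 are named, without roles, in the submitters' processing notes. The sources used here do not give the annotation, how strand was counted or what became of shared reads. The deposited table holds signal values: reads of 16260 RefSeq transcripts divided by 1 size factor per library. Whole reads were recovered for 100% of values within 0.05 reads. Transcripts were named from RefSeq (16202) or GENCODE (41), and 17 were left unnamed and out. The median value was 258.6 for genes with 1 annotated transcript, 12.57 with 2 and 6.815 with 3 or more, so levels of the 9 members with several transcripts (Col2a1, Col4a5, Col6a2, Col6a3, Col6a6, Col9a1, Col9a3, Col11a2 and Col14a1) are compared only between libraries. Other coding genes overlap Col10a1, Col4a2, Col4a3, Col4a4 and Col9a3, whose reads may be shared.

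Values were added per symbol and log2(value + 1) was fitted with limma 3.58.1 in R 4.3.3 (3 group means over all 9 libraries, trended variance, two-sided). Genes with at least 10 in at least 3 libraries were kept, with Benjamini-Hochberg adjustment over all of them. Members with a mean of at least 50 in a group are given in every library (26 of 35), the rest by range, and of each pathway list up to 5 called genes by size. The members and lists were chosen with earlier results of these data known. Alternatives were pseudocounts of 0.5 and 5, no filter or one of 50, other scalings, edgeR 4.0.16, DESeq2 1.42.0, the highest row per symbol, a robust trend, the compared groups only, leaving out each library, and the title number as a block. Leaving out BS_287 and OB_257 together was chosen after seeing the data. The fit was tested on simulated reads. Lower bounds use a floor of 3 reads per library. Counting intervals are exact (Clopper-Pearson, 95%), other shares use Wilson intervals, and both cover counting error only.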

Additional observations from a re-analysis of the deposited data

How the results depend on the processing

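Over the 21 alternatives the number of collagen genes called in BS against AG ranged from 15 to 24 around 19. In OB against AG it was 13 without AG_1, AG_2 or AG_3 and 15 to 23 otherwise, around 21, with leave-one-out values from 13 to 22. In OB against BS it was 2 by DESeq2, 1 without OB_287 and 0 otherwise, so that leave-one-out values ran from 0 to 1. With the title number as a replicate block over the pairs BS_287 with OB_287 and BS_295 with OB_295, 0 were called. The labels do not say what the numbers mark, only 2 numbers are shared, and deviations from the group means correlated by 0.069 for the first pair and 0.299 for the second. The AG share of reads was 0.602% without Col1a1, Col1a2 and Col3a1. Upper-quartile rescaling moved the median log2 difference of all tested genes to 0.26 in both comparisons with AG and the calls over all genes from 1687 higher and 2008 lower to 2375 and 1546 in OB, and from 1652 and 2060 to 2292 and 1548 in BS. Of 1688 values for single genes 1580 kept direction and call, 81 lost the call, 20 gained one and 7 changed sign. These values cover members with a mean of at least 50 and the named pathway genes. In OB against BS they include only members with an unadjusted p under 0.05. Over all tested members, sign changes in OB against BS ran from 0 to 9 per setting, with 9 without BS_287 and OB_257 together. Those 7 were all in OB against AG: Col7a1 at 0.055 by upper-quartile rescaling, 0.33 by edgeR, 0.29 by DESeq2 and 0.49 without OB_287, and Col16a1 at 0.10 by edgeR, 0.070 by DESeq2 and 0.55 without OB_287. With 1 library left out these ran from -0.97 to 0.49 for Col7a1 and from -0.92 to 0.55 for Col16a1. The cause was not tested. Tumour libraries varied more than AG (median SD of a gene 0.466 in BS and 0.483 in OB against 0.116 in AG, log2 scale) and the fit shares 1 spread. DESeq2 gave no adjusted p for 5 members.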

Other observations

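The make-up of the collagen reads differed between tumour libraries of the same group. Shares here are of all collagen reads of a library, with Wilson 95% intervals for counting error, and long transcripts weigh more. In AG_1 Col1a1 led with 32.04% (31.8 to 32.3), and in AG_2 and AG_3 Col12a1 led with 31.2% (30.9 to 31.4) and 33.7% (33.4 to 33.96). In the BS group the leading gene was Col4a2 in BS_287, at 23.6% (22.5 to 24.8), and Col11a1 in BS_295, at 46.8% (45.5 to 48.1). In BS_296 Col9a3 held 22.5% (21.5 to 23.4) and Col11a1 21.7% (20.8 to 22.7), with overlapping intervals. In the OB group Col11a1 led in OB_287, at 24.5% (23.4 to 25.6), and OB_295, at 37.5% (36.7 to 38.2), while in OB_257 Col9a3 held 43.8% (43.01 to 44.6) and Col4a2 21.8% (21.1 to 22.5). Col9a3 has several annotated transcripts, and such genes read low in this table, so its place against other genes is uncertain. Col11a1 in OB_257 was 0.264% of the collagen reads of that library. OB_257 was the tumour library with the highest value for 12 of the 35 members, among them Col4a2, Col4a3, Col4a4, Col6a1 and Col6a2, and OB_295 for 10. The same count over all genes is not given here, so whether these counts are particular to collagen genes was not tested.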
